A study of Homo sapiens with 90 samples.

Results

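RT112 is an established human bladder carcinoma line, known from the literature to depend on fibroblast growth factor receptor (FGFR) signalling through an FGFR3 fusion. The comparison described here asks what the FGFR inhibitor BGJ398 still did to the RNA of these cells once THZ1 was present. THZ1 binds CDK7, a kinase of the transcription machinery, covalently, and it also inhibits the related kinases CDK12 and CDK13. One arm received BGJ398 at 1 uM together with THZ1 at 100 nM for 48 h and is called the combination. Its 3 libraries were set against 3 libraries of cells given THZ1 at 100 nM alone for 48 h, so both arms shared the THZ1 treatment. These 6 libraries, chosen by their labels, are part of 90 in the whole study, which covers 6 cancer lines in 5 arms each. For the effect of BGJ398 without THZ1, 3 libraries of cells given BGJ398 at 1 uM for 48 h were set against 3 given 0.1% DMSO, the solvent. These 2 comparisons have no library in common, and the difference between them, called the interaction, was tested as well.

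FGFRs are receptor tyrosine kinases that, through the adaptor FRS2, switch on the RAS, MEK and ERK kinases (the MAPK pathway) and the PI3K and AKT kinases. Active ERK drives transcription of cyclin D1, MYC and ETS-family factors. It also induces its own inhibitors, the Sprouty and SPRED proteins and the DUSP phosphatases, so that these transcripts serve as a readout of pathway activity. AKT keeps FOXO transcription factors out of the nucleus, and their target genes come on when the pathway is blocked. CDK7 phosphorylates RNA polymerase II early in transcription and activates the cell-cycle kinases.

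The combination libraries held 11917327 to 12830874 expected counts and the THZ1 libraries 12742315 to 13765392. Levels are given as CPM, the share of a library's counts scaled to a common depth and adjusted for RNA composition. Such values show shares of the RNA, so a fall of all RNA together would not be visible, and fewer cells of a type cannot be told apart from less RNA per cell. Within the arms, the chi-square between the counts of 2 libraries, which is 1 per degree of freedom for sampling noise alone, ran from 1.58 to 5.27. It ran from 12.1 to 20.4 for the pairs with BGJ398 replicate 1 or DMSO replicate 1, which stood apart from their arms. Nothing in the labels tells whether replicate libraries are separate cultures, so the p-values measure the spread between libraries only. The cells carried RNA of some urothelial genes and of basal epithelium. KRT7 averaged 3985 CPM in the combination and 3447 CPM under THZ1, and the uroplakin UPK1B 1091 CPM in the combination and 825 CPM under THZ1. The urothelial keratin KRT20 was nearly absent in both arms. TP63, a factor of basal epithelium, averaged 7.72 CPM in the combination and 52.9 CPM under THZ1. The 16 basal and squamous genes tested summed to 6027 to 6868 CPM in the combination and 7097 to 7336 CPM under THZ1. The leukocyte marker PTPRC and the lymphocyte markers CD3E and CD79A fell below the filter on low counts. Of 8 blood cell markers 3 passed it, and CD14, CD68 and LCP1 were all higher in the combination than under THZ1. Their summed level, mostly LCP1, was 113, 101 and 102 CPM in the combination, against 38.2, 41.1 and 35.1 CPM under THZ1. Of the 4 fibroblast and endothelial markers tested, COL1A1, LUM and CDH5 were higher and COL3A1 did not pass, with sums of 240, 241 and 252 CPM in the combination, against 175, 178 and 173 CPM under THZ1. Of 12 melanocyte, lung and gastric markers 5 were tested. PMEL and GKN1 were higher, NAPSA was lower and 2 were not called. They summed to 21.4 to 29.6 CPM in the combination, against 21.1 to 24.7 CPM under THZ1. The part of other cells in the results below was not tested.

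BGJ398 still changed the transcriptome broadly when THZ1 was present, but less than it did alone. Of 15298 genes tested, 7943 (51.9%) differed between the combination and THZ1 at an adjusted p under 0.05 (edgeR's quasi-likelihood test, Benjamini-Hochberg adjustment over all genes). Of these, 3618 (23.7% of the genes tested) were higher and 4325 (28.3%) lower, and the median log2 fold change of all genes was -0.0027. Changes of at least 2-fold were fewer, with 763 genes higher (4.99%) and 471 lower (3.08%), together 8.07% of the genes tested. BGJ398 against DMSO gave 10601 calls (69.3%), 34.2% of the genes tested being higher and 35.1% lower. Of these, 1930 were at least 2-fold higher (12.6%) and 1656 at least 2-fold lower (10.8%). The interaction was called for 7222 genes (47.2%), positive in 3785 (24.7%) and negative in 3437 (22.5%), and at least 2-fold positive in 5.66% and negative in 6.88% of the genes tested. When libraries were scaled by total counts, the median change of all genes under BGJ398 alone moved to 0.177 and 6501 genes were higher and 4244 lower, beside 5227 and 5374. The interaction then had 2794 positive and 4467 negative calls and a median of -0.124. Given 3 libraries an arm and the close agreement between them, a call alone is a low bar here, and counts below are to be read against these shares.

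The direction of the effect was mostly kept and its size was not. Of 6543 genes called in both comparisons, 5936 (90.7%) moved the same way, and 4702 of those (79.2%) had the smaller change when THZ1 was present. Genes at least 2-fold higher under BGJ398 alone had a median log2 change of 0.59 in the combination against THZ1, beside 1.61 in the comparison that selected them. Of these 1930 genes, 1000 (51.8%) were called higher in the combination and 888 (46.0%) were not called. For 1234 of them (63.9%) the interaction was called with a smaller or reversed effect under THZ1, and for 3 with a larger one. Genes at least 2-fold lower under BGJ398 alone had a median of -0.58 in the combination against THZ1, beside -1.46 without THZ1, and 1234 of 1656 (74.5%) were also called lower in the combination. These genes were picked for their size without THZ1, which favours the larger value there. Read from the other side, 488 of the 763 genes at least 2-fold higher in the combination (64.0%) were also called higher under BGJ398 alone, and 233 (30.5%) were not called. Of the 471 at least 2-fold lower, 368 (78.1%) were called lower under BGJ398 alone.

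**Figure D1:**
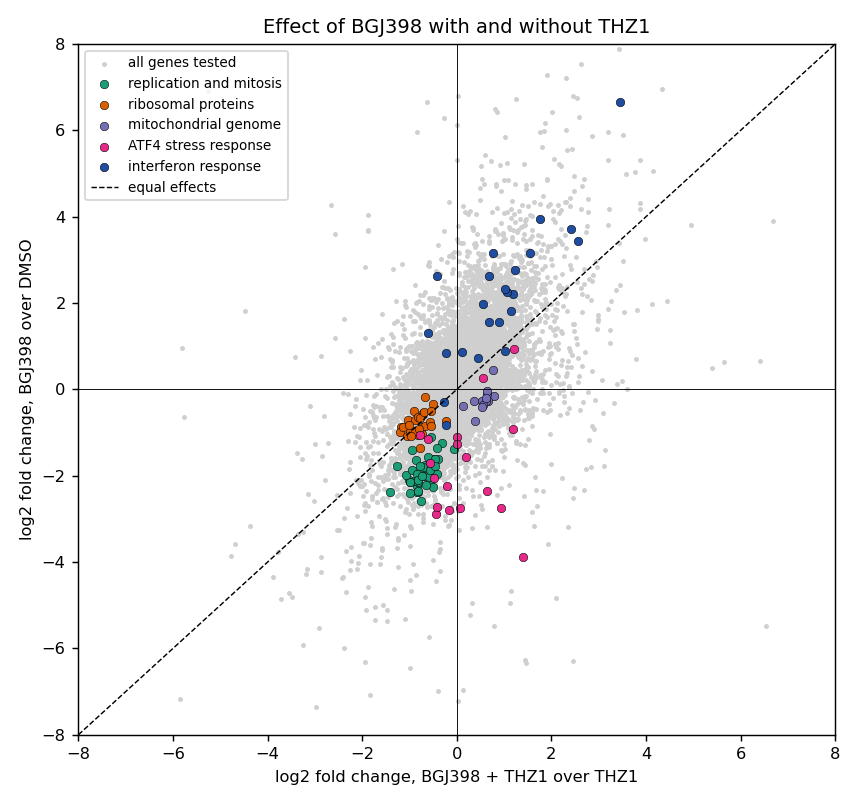
Each point is a tested gene in RT112 cells, placed by its log2 fold change in the combination over THZ1 (horizontal) and under BGJ398 over DMSO (vertical), with 5 groups of genes in colour and 2 genes outside the axes. Replication and mitosis genes lie between the dashed line of equal effects and the vertical zero line, ribosomal protein genes lie near the dashed line, and genes of the mitochondrial genome lie to the right of zero.

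The readout of the MAPK pathway fell again when BGJ398 was added to THZ1. Of 24 MAPK output genes tested, 12 were lower in the combination, 3 were higher and 9 were not called, with a median log2 change of -0.56. Under BGJ398 alone the median was -1.61, with 15 lower and 2 higher. Of the 11 feedback inhibitors of ERK, 7 were lower and none was higher. The interaction was called for 14 of the 24, positive in 12 and negative in 2.

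SPRY4, a Sprouty inhibitor of receptor signalling, had 3.76, 4.32 and 4.19 CPM in the combination libraries, against 20.8, 19.2 and 18.7 CPM in the THZ1 libraries. Its log2 fold change was -2.26 ± 0.22 (SE of the fit; adjusted p = 2.89e-07), and the arms did not overlap. DUSP6, the phosphatase that removes phosphate from ERK, had 26.5, 27.4 and 22.7 CPM, against 104, 97.8 and 96.8 CPM under THZ1. That was a fall of 1.96 ± 0.23 on the log2 scale (adjusted p = 2.56e-06). SPRED1 and SPRED2, which recruit neurofibromin to shut off RAS, fell by 1.28 ± 0.093 and 0.96 ± 0.064. DUSP7 fell by 0.63, SPRY2 by 0.73 and the RAS GTPase-activating protein RASA1 by 0.48.

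The ETS factors ETV4 and ETV5 differed widely between the settings with and without THZ1. ETV4 had 39.3, 40.4 and 39.4 CPM in the combination libraries, against 141, 146 and 141 CPM under THZ1, a log2 change of -1.84 ± 0.057 (adjusted p = 2.3e-12). Without THZ1, it had 1.07, 1.47 and 0.748 CPM under BGJ398, against 145, 149 and 156 CPM in DMSO, a log2 change of -7.08 ± 0.094. More of the transcript was left under BGJ398 when THZ1 was present. The interaction was 5.24 ± 0.12 (adjusted p = 2.7e-13). ETV5 had 7.92, 9.47 and 8.16 CPM in the combination libraries, against 35.1, 31.4 and 29.8 CPM under THZ1, and its interaction was 6.61 ± 0.39 (adjusted p = 2.13e-09). In the BGJ398 libraries ETV5 was at 0, 0.294 and 0.149 CPM, against 52.5, 65.0 and 57.9 CPM in DMSO.

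Other ERK outputs moved in both directions. CCND1, which encodes cyclin D1, had 248, 241 and 249 CPM in the combination and 400, 400 and 391 CPM under THZ1, a fall of 0.69 ± 0.13 (adjusted p = 0.000409). MYC had 228, 123 and 129 CPM, against 387, 384 and 416 CPM under THZ1, and fell by 1.31 ± 0.33 (adjusted p = 0.00371), with replicate 1 the highest of the combination libraries. TERT, the catalytic subunit of telomerase, fell by 1.60 ± 0.13. EGR1, an immediate-early zinc finger factor, was higher by 1.02 ± 0.22, and the ephrin receptor EPHA4 by 0.92 ± 0.13. Both were also higher under BGJ398 alone, with log2 changes of 2.90 and 2.32. VGF, a secreted neuropeptide precursor, went opposite ways. It had 13.1, 10.1 and 11.8 CPM in the combination, against 4.49, 3.44 and 3.20 CPM under THZ1 (1.65 ± 0.21), while BGJ398 alone lowered it by 2.03 (interaction 3.68 ± 0.39, adjusted p = 1.34e-06).

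Among the 9 MAPK genes not called, PHLDA1 and IER3 lay close to the threshold. PHLDA1, a pro-apoptotic ERK target, had 349, 336 and 328 CPM in the combination, against 584, 567 and 590 CPM under THZ1, with no overlap (log2 change -0.78 ± 0.32, adjusted p = 0.0546). IER3, an early response gene, had 358, 287 and 294 CPM, against 171, 167.6 and 171 CPM under THZ1 (adjusted p = 0.053). Without BGJ398 replicate 1 and DMSO replicate 1, an alternative chosen after seeing the data, PHLDA1 had adjusted p = 0.00247 and IER3 0.000123. Under that setting 13 of the 24 genes were called lower and 4 higher, and without replicate 1 of every arm 17 were lower and 5 higher.

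**Figure D2:**
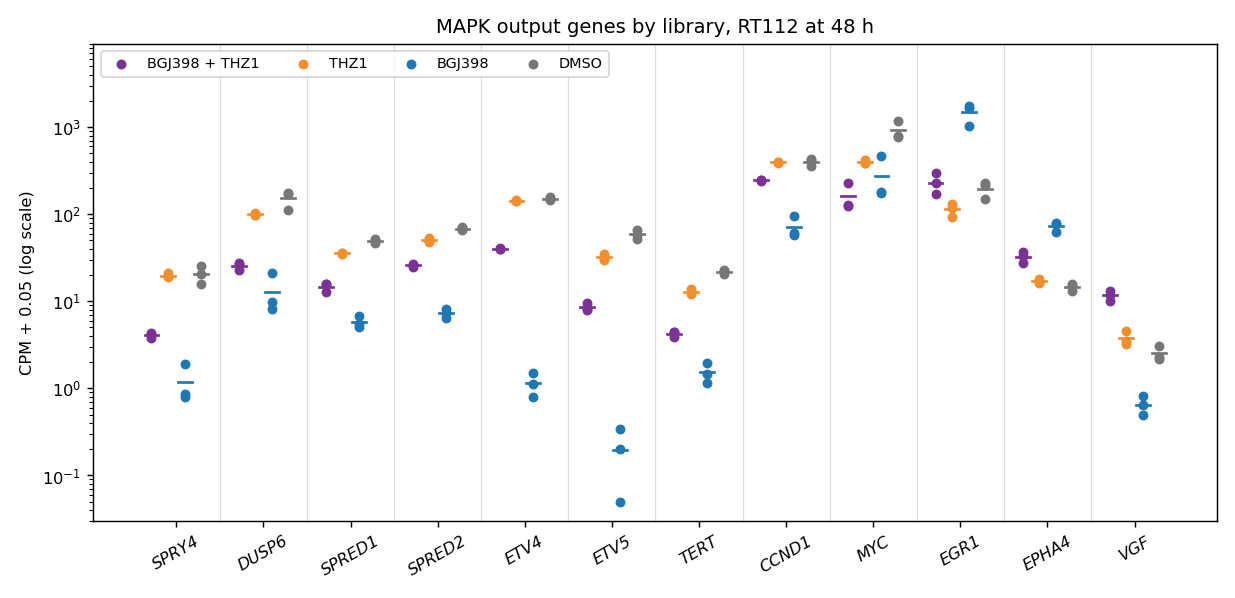
CPM plus 0.05 (log scale) of 12 MAPK output genes in each RT112 library at 48 h, with points for libraries and bars for the mean of 3 libraries per arm. For SPRY4, DUSP6, SPRED1, SPRED2, ETV4, ETV5 and TERT the combination libraries lie below the THZ1 libraries and above or beside the BGJ398 libraries, and VGF is highest in the combination.

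Genes of the FGFR system itself moved modestly and in both directions. Of 17 tested, 7 were higher in the combination than under THZ1, 5 were lower and 5 were not called (median log2 change -0.01). FGFR3, the receptor on which the line depends, had 397, 401 and 407 CPM in the combination, against 633, 612 and 633 CPM under THZ1, a fall of 0.64 ± 0.038 (adjusted p = 1.2e-09). FGFR3 fell by 0.43 ± 0.037 under BGJ398 alone, where it had 775 CPM on average, against 1042 CPM in DMSO. FGFR2 was higher by 0.77 ± 0.09 and FGFR1 by 0.74 ± 0.22, and FGFR4, at 1.34 CPM in the combination and 2.31 CPM under THZ1, was lower by 0.80 ± 0.28, a call lost when any one of 4 of the 6 libraries was left out. KLB, the co-receptor for endocrine FGFs, was higher by 1.497 ± 0.24, with an interaction of 2.06 ± 0.41 (adjusted p = 0.000506). FGFBP1, which carries FGFs out of the matrix, fell by 1.56 ± 0.30. Of the adaptors, FRS2, GAB1, GRB2 and SOS1 were higher by 0.24 to 0.56, and SHC1 was lower by 0.33. SHC1 fell by 1.69 under BGJ398 alone.

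Receptors and ligands that could carry signals past FGFR were tested as a list of 20, of which 6 were higher, 6 lower and 8 not called (median -0.13). ERBB2 and ERBB3, partners in neuregulin signalling, were higher by 0.27 ± 0.046 and 0.31 ± 0.052. Under BGJ398 alone they were higher by 0.97 and 1.29, and both interactions were called (-0.70 and -0.98, adjusted p = 3.08e-07 and 2.77e-08). The ligand NRG4 was higher by 0.66 and TGFA, a ligand of EGFR, by 0.48. EGFR fell by 0.34 ± 0.033, MET by 0.69 ± 0.056 and EPHB6 by 0.90 ± 0.04. IRS1, the docking protein of the insulin receptors, had 29.5, 24.4 and 27.4 CPM in the combination, against 60.5, 56.0 and 62.6 CPM under THZ1. Its fall of 1.14 ± 0.12 was larger than that without THZ1, where the log2 change was -0.13 and was not called (interaction -1.005 ± 0.16, adjusted p = 7.14e-05). RET and BTC passed the test at low levels, 0.558 and 0.912 CPM in the combination and 1.46 and 0.308 CPM under THZ1.

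Proliferation genes fell as a block. Of 23 genes of the G1 phase and DNA replication, 22 were lower in the combination and 1, CCNE2, was not called, with a median log2 change of -0.81. All 21 mitotic genes tested were lower, with a median of -0.66. In the same lists BGJ398 alone gave 23 and 21 genes lower and medians of -2.14 and -1.86. The interaction was called for every one of these genes, each with the smaller fall under THZ1. CCNA2, the cyclin of S phase, had 35.9, 40.3 and 33.8 CPM in the combination, against 79.8, 77.5 and 74.6 CPM under THZ1 (-1.08 ± 0.069, adjusted p = 3.36e-09). MCM6, a subunit of the replicative helicase, had 34.7, 38.0 and 36.7 CPM, against 74.0, 73.7 and 71.6 CPM under THZ1 (-1.002 ± 0.065). RRM2, a subunit of ribonucleotide reductase, fell by 0.99 ± 0.073 and GINS1, part of the replication fork complex, by 0.99 ± 0.06. Among mitotic genes, the kinase AURKB had 13.1, 12.6 and 11.7 CPM, against 35.2, 32.1 and 32.2 CPM under THZ1 (-1.41 ± 0.081, adjusted p = 8.69e-10). Topoisomerase TOP2A had 158, 176 and 170 CPM, against 394, 405 and 405 CPM under THZ1 (-1.26 ± 0.055). All 21 mitotic genes had arms that did not overlap, as had 61.3% of all tested genes. CCNB1 fell by 0.95 and the kinesin KIF20A by 0.94. The summed level of the mitotic genes was 1946, 2000 and 1967 CPM in the combination libraries, against 3311, 3285 and 3257 CPM under THZ1. It was 964, 1041 and 1044 CPM under BGJ398, against 3492, 3483 and 3454 CPM in DMSO, so the combination stood between THZ1 alone and BGJ398 alone.

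E2F factors bind promoters of replication genes, and the CHR element marks promoters of mitotic genes that the DREAM complex holds silent in resting cells. The 250 bases before the start of each gene were searched on both strands in the RefSeq promoter table, which had 11086 of the 14206 tested genes with a symbol. E2F motifs (TTTCCCGC or TTTGGCGC) were in 10 of the 19 replication genes found (52.6%), beside 3.02% of the tested genes found. The CHR motif (TTTGAA) was in 9 of the 16 mitotic genes found (56.2%), beside 8.49%. Among genes at least 2-fold lower in the combination, E2F motifs were in 10 of 313 promoters found (3.19%) and CHR motifs in 33 (10.5%). Among those at least 2-fold higher, they were in 8 of 472 (1.69%) and in 52 (11.0%). The high shares thus belong to the chosen lists, not to the genes with falls of at least 2-fold. Most members of these lists fell by less than 2-fold (medians -0.81 and -0.66), so the cut-off itself left them out of that set. The low shares there do not show whether genes with a motif fell. The genes with a match and the largest falls in each list are shown, 3 for each motif, to show where the motifs lie. Genes with falls as large had no match in the window, among them AURKB, RRM2, CCNB1 and KIF20A, and no link between motif and fall was tested. The sequences run 5′ to 3′ on the strand of the gene, in GRCh38.p14, with matches in capitals. The first 3 hold E2F motifs and the last 3 hold CHR motifs.
GINS2 (chr16:85688955-85689204, minus strand): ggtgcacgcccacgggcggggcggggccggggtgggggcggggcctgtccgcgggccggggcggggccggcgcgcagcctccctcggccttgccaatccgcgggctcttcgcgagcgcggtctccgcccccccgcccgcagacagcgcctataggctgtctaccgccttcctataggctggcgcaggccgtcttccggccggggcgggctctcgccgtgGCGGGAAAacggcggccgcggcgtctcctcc
MCM6 (chr2:135876444-135876693, minus strand): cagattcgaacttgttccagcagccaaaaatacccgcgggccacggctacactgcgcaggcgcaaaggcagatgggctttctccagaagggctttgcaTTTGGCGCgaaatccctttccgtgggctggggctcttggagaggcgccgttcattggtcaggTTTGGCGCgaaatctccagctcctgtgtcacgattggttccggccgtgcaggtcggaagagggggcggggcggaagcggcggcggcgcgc
MCM7 (chr7:100101398-100101647, minus strand): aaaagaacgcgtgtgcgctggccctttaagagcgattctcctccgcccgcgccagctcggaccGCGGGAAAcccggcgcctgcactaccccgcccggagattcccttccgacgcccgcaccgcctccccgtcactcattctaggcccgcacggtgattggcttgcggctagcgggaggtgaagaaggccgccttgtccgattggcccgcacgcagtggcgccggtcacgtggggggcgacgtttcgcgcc
TOP2A (chr17:40417897-40418146, minus strand): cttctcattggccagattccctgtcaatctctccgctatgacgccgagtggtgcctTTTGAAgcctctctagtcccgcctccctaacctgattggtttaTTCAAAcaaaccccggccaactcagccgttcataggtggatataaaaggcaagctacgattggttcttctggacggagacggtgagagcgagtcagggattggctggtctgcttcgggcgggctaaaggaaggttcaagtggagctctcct
PLK1 (chr16:23678639-23678888, plus strand): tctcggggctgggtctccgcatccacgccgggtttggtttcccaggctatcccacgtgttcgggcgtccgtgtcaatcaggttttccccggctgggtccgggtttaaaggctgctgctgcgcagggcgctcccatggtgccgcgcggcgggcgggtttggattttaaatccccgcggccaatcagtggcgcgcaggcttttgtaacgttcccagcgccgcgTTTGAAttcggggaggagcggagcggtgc
MKI67 (chr10:128126424-128126673, minus strand): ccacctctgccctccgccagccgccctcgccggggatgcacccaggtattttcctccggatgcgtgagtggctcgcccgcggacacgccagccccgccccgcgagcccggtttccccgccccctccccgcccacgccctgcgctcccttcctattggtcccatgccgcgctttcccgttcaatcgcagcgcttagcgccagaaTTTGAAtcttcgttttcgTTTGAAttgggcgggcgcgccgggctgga
The MCM6 window holds TTTGGCGC beginning 152 and 90 bases before the start, and those of GINS2 and MCM7 hold the reverse complement GCGGGAAA 31 and 187 bases before it. PLK1 has its TTTGAA 29 bases before the start and MKI67 at 47 and 29 bases, while the TOP2A matches lie at 194 and 151 bases. GINS2 fell by 0.98, MCM7 by 0.88, PLK1 by 0.83 and MKI67, the gene of the Ki-67 antigen, by 0.78. A match is a string of letters, and binding was not measured. The ETS motif CCGGAAGT was in 7 of the 472 promoters found among genes at least 2-fold higher in the combination (1.48%) and in 7 of 313 among genes at least 2-fold lower (2.24%), beside 6.86% of the tested genes found. Among the 15 MAPK output genes with a promoter in the table none held it. Motifs named AP-1, CRE and CArG box were searched as well. They were in 6.07%, 0.958% and 0.639% of the promoters found among genes at least 2-fold lower. Among genes at least 2-fold higher the shares were 5.08%, 3.81% and 2.12%, beside 4.1%, 2.83% and 1.02% of the tested genes found. Over all 27305 promoters of the table, whether tested or not, the shares were 3.64% for ETS, 1.96% for E2F and 13.6% for CHR.

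Homologous recombination and Fanconi genes, which repair broken and crosslinked DNA, followed the same course. Of 17 tested, 13 were lower, none was higher and 4 were not called, with a median of -0.48, beside -1.78 under BGJ398 alone. BRCA1 fell by 1.002 ± 0.074 (adjusted p = 1.66e-08), XRCC2 by 0.77, FANCD2 by 0.77 and the helicase BLM by 0.72. The interaction was called for 15 of these genes with the smaller fall under THZ1. Of 6 genes for inhibitors of cyclin-dependent kinases and a pocket protein of quiescence, 3 were higher, 1 was lower and 2 were not called. CDKN1A, which encodes p21, had 385, 294 and 292 CPM in the combination, against 167.7, 162 and 159 CPM under THZ1, a rise of 0.99 ± 0.21 (adjusted p = 0.000998). CDKN1A rose by nearly the same amount without THZ1 (0.95 ± 0.22), with an interaction of 0.036 ± 0.30 (adjusted p = 0.937). CDKN1B, encoding p27, was higher by 0.30 and CDKN1C, encoding p57, by 0.82, but the call of CDKN1C was lost whichever library of the 2 arms was left out. RBL2, the pocket protein p130 of resting cells, was lower by 0.23 ± 0.051, whereas BGJ398 alone raised it by 0.54 (interaction -0.77 ± 0.072, adjusted p = 2.97e-07).

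Ribosomal protein genes behaved otherwise. All 28 tested were lower in the combination, with a median log2 change of -0.81, and all 28 were lower under BGJ398 alone, with a median of -0.85. The median interaction was -0.03, but 18 of the 28 interactions were called, 7 positive and 11 negative. With scaling by total counts 4 were positive and 15 negative, with a median of -0.153. RPS23 had 165, 162 and 156 CPM in the combination, against 392, 367 and 358 CPM under THZ1 (-1.21 ± 0.044, adjusted p = 1.26e-11). RPL4 had 621, 613 and 581 CPM, against 1216, 1202 and 1176 CPM under THZ1 (-0.98 ± 0.034). RPS3 and RPL7A fell by 1.18 and 1.14, and RPS24 by 1.04. The summed level of the list was 13752, 13100 and 12153 CPM in the combination, against 22952, 22091 and 21672 CPM under THZ1. It was 18794, 17984 and 18325 CPM under BGJ398, against 30927, 32384 and 32120 CPM in DMSO. Here the combination was the lowest of the 4 arms, with no overlap. These genes have many processed pseudogenes, and the authors' estimated counts share reads between such copies, so single values are uncertain.

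Transcripts of the mitochondrial genome, which encode subunits of the respiratory chain, rose in the combination. All 13 were higher than under THZ1, with a median log2 change of 0.62, whereas under BGJ398 alone the median was -0.28. MT-ND1 had 4907, 4145 and 3737 CPM, against 2552, 2548 and 2306 CPM under THZ1 (0.79 ± 0.11, adjusted p = 1.09e-05). MT-CO1 had 12850, 10560 and 10430 CPM, against 6713, 6776 and 6369 CPM under THZ1 (0.77 ± 0.079). MT-ND4 and MT-CO3 were higher by 0.65 and 0.65. All 13 interactions were called and positive, and 8 of the genes were called lower under BGJ398 alone. With scaling by total counts 12 interactions were called, and under BGJ398 alone 4 genes were lower, with a median of -0.116. The list summed to 59779, 50766 and 48332 CPM in the combination, against 35955, 35972 and 33242 CPM under THZ1, and replicate 1 was the highest of the combination libraries. Without replicate 1 of every arm the median was 0.49, with 12 of 13 called higher. Nuclear copies of these genes may share their reads.

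**Figure D3:**
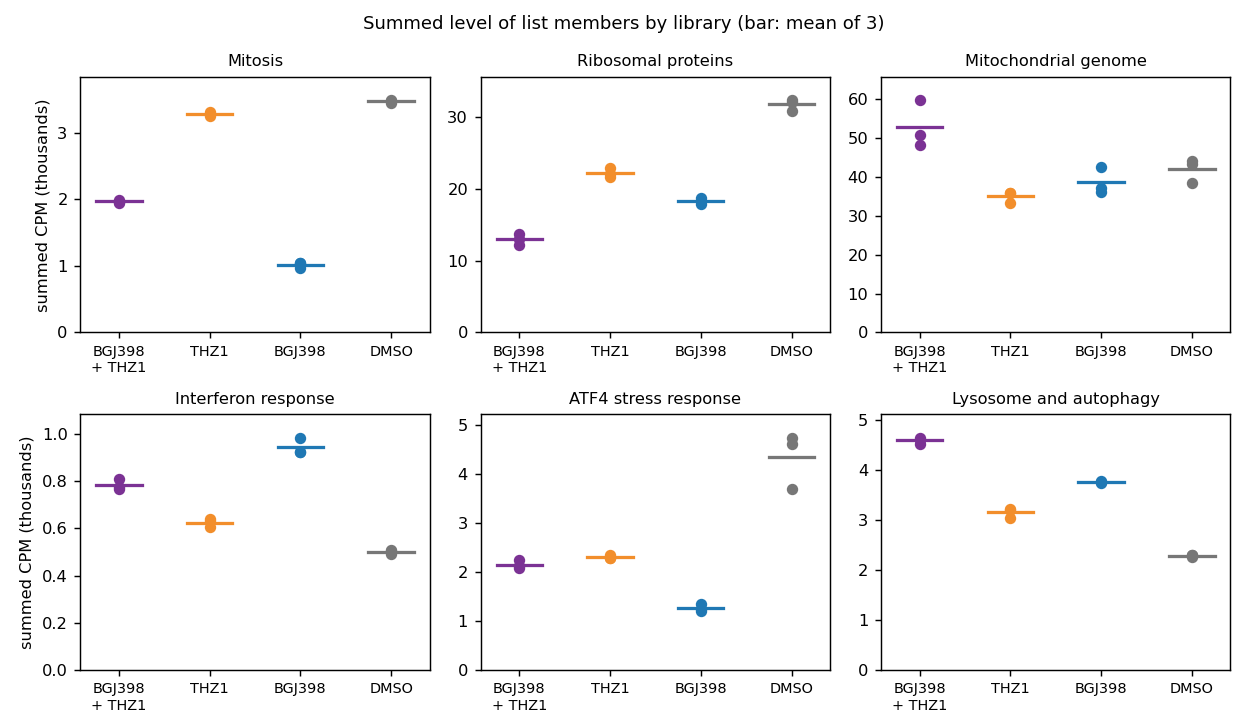
Summed CPM (axis divided by 1000) of 6 gene lists in each RT112 library (points) with the mean of 3 libraries per arm (bars), arms from left to right BGJ398 plus THZ1, THZ1, BGJ398 and DMSO. Mitosis genes in the combination lie between the THZ1 and BGJ398 arms, ribosomal protein genes are lowest and mitochondrial transcripts highest in the combination, and ATF4 genes are near the level of THZ1.

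Glycolysis genes mostly fell. Of 16 tested, 11 were lower, 1 was higher and 4 were not called, with a median of -0.29, beside -1.21 under BGJ398 alone. Without BGJ398 replicate 1 and DMSO replicate 1, 3 were higher and 11 lower. ENO1, the enolase, fell by 0.80 ± 0.035 (adjusted p = 5.31e-11), lactate dehydrogenase LDHA by 0.65 ± 0.036, HK1 by 0.60 and PGAM1 by 0.52. LDHA had 465 CPM in the combination and 731 CPM under THZ1, while BGJ398 alone lowered LDHA by 2.62 (interaction 1.97 ± 0.051, adjusted p = 7.14e-13). In the 24 genes of cholesterol and fatty acid synthesis, 10 were lower, 6 higher and 8 not called. The fatty acid branch gave 5 of 6 genes lower. FASN, the fatty acid synthase, fell by 0.80 ± 0.04 and its regulator SREBF1 by 0.83 ± 0.039. SREBF1 had 298, 316 and 328 CPM, against 550, 556 and 569 CPM under THZ1, but a log2 change of 0.0058 under BGJ398 alone, which was not called (interaction -0.84 ± 0.055, adjusted p = 7.54e-09). The sterol enzyme SC5D rose by 0.81.

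FOXO target genes were mostly higher in the combination. Of 11 tested, 7 were higher, none was lower and 4 were not called, with a median of 0.55, beside 1.06 under BGJ398 alone. FBXO32, a ubiquitin ligase, had 68.1, 56.7 and 59.1 CPM in the combination, against 12.7, 12.4 and 12.7 CPM under THZ1. The rise of 2.28 ± 0.10 (adjusted p = 5.66e-11) was close to that without THZ1 (2.17 ± 0.11), with an interaction of 0.11 ± 0.15 (adjusted p = 0.581). PIK3IP1, an inhibitor of PI3K, had 3.12, 3.57 and 3.73 CPM, against 1.12, 0.320 and 1.24 CPM under THZ1 (1.93 ± 0.30). BGJ398 alone brought PIK3IP1 to 30.3, 37.8 and 33.8 CPM, against 1.71, 2.32 and 1.31 CPM in DMSO. KLHL24 rose by 1.14 and CITED2 by 0.91.

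In the BCL2 family, which sets the threshold of apoptosis, 5 of 15 genes were higher, 4 lower and 6 not called. BMF, a BH3-only protein that antagonises BCL2, had 32.1, 26.8 and 29.4 CPM in the combination, against 5.37, 8.57 and 5.82 CPM under THZ1 (2.16 ± 0.13, adjusted p = 9.82e-10). Under BGJ398 alone BMF had 43.2, 48.1 and 46.2 CPM, against 2.56, 2.48 and 3.04 CPM in DMSO, and the interaction was -1.93 ± 0.21 (adjusted p = 1.52e-06). The other BH3-only genes BIK, BBC3 (PUMA) and BCL2L11 (BIM) were higher by 0.82, 0.82 and 0.77. BBC3 did not pass under BGJ398 alone (0.015), and its interaction was called (0.80 ± 0.19, adjusted p = 0.00217). Of the protective members, BCL2L1 (BCL-XL) was higher by 0.41 ± 0.056 and BCL2 lower by 0.89 ± 0.21, at 1.99 CPM in the combination and 3.70 CPM under THZ1. MCL1, a short-lived protective protein, had 306, 283 and 297 CPM, against 264, 278 and 271 CPM under THZ1, a log2 change of 0.12 ± 0.19 that was not called (adjusted p = 0.617). BAX, BAD and BID were lower by 0.17 to 0.32.

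Lysosome and autophagy genes were higher in the combination. Of 19 tested, 16 were higher, 1 lower and 2 not called, with a median of 0.47, beside 0.74 under BGJ398 alone. SQSTM1, the autophagy receptor p62, had 1123, 1121 and 1050 CPM in the combination, against 364, 360 and 326 CPM under THZ1 (1.65 ± 0.079, adjusted p = 1.31e-10). Its interaction was -0.17 ± 0.11 (adjusted p = 0.213). GABARAPL1, a protein of the autophagosome membrane, rose by 1.46 ± 0.21 and the sialidase NEU1 by 0.96 ± 0.064. The proton pump subunit ATP6V1B1 rose by 1.90 ± 0.089, less than the 4.85 ± 0.10 seen without THZ1 (interaction adjusted p = 6.44e-10). TFEB, the factor that drives many lysosomal genes, was the 1 member that was lower (-0.72 ± 0.069).

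Interferon response genes were higher, at a smaller size than without THZ1. Of 23 tested, 17 were higher, 3 lower and 3 not called, with a median of 0.88, beside 2.21 under BGJ398 alone. IFI44 had 6.96, 8.06 and 6.55 CPM in the combination, against 1.68, 2.96 and 1.75 CPM under THZ1 (1.76 ± 0.18, adjusted p = 4.68e-07). Without THZ1 it had 32.3, 28.3 and 28.4 CPM under BGJ398, against 1.86, 1.92 and 1.97 CPM in DMSO, and the interaction was -2.19 ± 0.26 (adjusted p = 4.28e-06). STAT2, which carries the interferon signal to the nucleus, had 89.2, 92.4 and 91.7 CPM, against 45.9, 45.1 and 44.3 CPM under THZ1 (1.01 ± 0.044). RSAD2 (viperin) and IFI44L rose by 2.41 and 3.45, and IFI27 by 2.57, at 3.19, 1.23 and 0.658 CPM on average in the combination. The members that were lower were the RNA sensors OAS1 and OAS3 and the tethering protein BST2 (log2 changes of -0.27, -0.22 and -0.23). In the interaction, 17 of the 23 were called lower.

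Antigen presentation genes gave 11 of 18 higher, none lower and 7 not called, with a median of 0.62. B2M, the light chain of class I, had 1429, 1433 and 1351 CPM in the combination, against 845, 849 and 810 CPM under THZ1 (0.75 ± 0.037, adjusted p = 2.04e-10). NLRC5, the activator of class I genes, rose by 1.67 ± 0.19, the immunoproteasome subunit PSMB9 by 1.102 ± 0.094 and HLA-E by 0.67 ± 0.053. HLA genes resemble each other, so reads may be split between them. Of 16 inflammatory genes listed, 9 passed the filter on low counts, with 3 higher and 2 lower. The cytokine gene TNF had 1.68, 0.831 and 1.07 CPM in the combination, against 0.0801, 0.320 and 0.0728 CPM under THZ1 (2.87 ± 0.59), IL1B was lower by 1.17 ± 0.39, ICAM1 was higher by 0.98 and the NF-kB inhibitor NFKBIA by 0.56. The calls of ICAM1 and IL1B were lost when single libraries were left out. Without BGJ398 replicate 1 and DMSO replicate 1, 5 of these genes were called higher.

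The ATF4 stress response, which supplies amino acids and glutathione, had the largest median interaction of the lists (1.90). BGJ398 alone lowered 16 of 18 genes, with a median log2 change of -1.88. With THZ1 present 7 were higher, 5 lower and 6 not called, with a median of 0.00, and the interaction was called higher for 16. The list summed to 2247, 2130 and 2076 CPM in the combination, against 2358, 2294 and 2283 CPM under THZ1. It summed to 1337, 1202 and 1234 CPM under BGJ398, against 3692, 4625 and 4748 CPM in DMSO. THZ1 alone thus already lay below DMSO, and the combination was not above THZ1 in the sum. SLC7A11, the cystine transporter, had 78.6, 81.8 and 78.3 CPM in the combination, against 40.6, 45.3 and 39.3 CPM under THZ1, a rise of 0.93 ± 0.11 (adjusted p = 2.53e-06). Without THZ1 it had 10.1, 8.30 and 11.8 CPM under BGJ398, against 54.4, 73.4 and 76.5 CPM in DMSO, a fall of 2.76 ± 0.13. The interaction was 3.69 ± 0.17 (adjusted p = 1.88e-10). CHAC1, an enzyme that degrades glutathione, had 4.16, 5.57 and 4.19 CPM in the combination, against 1.52, 2.08 and 1.67 CPM under THZ1 (1.39 ± 0.55, adjusted p = 0.0435). Without THZ1 it had 2.75, 2.72 and 3.14 CPM under BGJ398, against 16.8, 50.5 and 61.1 CPM in DMSO, a fall of 3.89 ± 0.38. The interaction of CHAC1 was 5.28 ± 0.67 (adjusted p = 8.35e-06). All its THZ1 and combination libraries lay below all its DMSO libraries, so the rise in the combination began from a low level. The call of CHAC1 in the combination was lost whichever library of those arms was left out (adjusted p = 0.0657 to 0.117). CTH, the last enzyme of cysteine synthesis, rose by 1.19 ± 0.18 in the combination and fell by 0.91 without THZ1. The stress factor DDIT3 (CHOP) had 5.92, 4.99 and 6.17 CPM in the combination, against 2.16, 2.56 and 2.69 CPM under THZ1 (adjusted p = 0.000318), and was higher by 0.94 under BGJ398 alone.

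Stress and arrest genes known as p53 targets gave 7 of 16 higher, 1 lower and 8 not called, with a median of 0.17. GADD45A, a growth arrest gene, had 208, 172 and 166 CPM in the combination, against 48.2, 50.7 and 50.1 CPM under THZ1 (1.87 ± 0.29, adjusted p = 5.94e-05). It did not pass under BGJ398 alone (0.17), and the interaction was 1.71 ± 0.41 (adjusted p = 0.00272). TP53INP1 rose by 1.42 ± 0.072, the secreted stress factor GDF15 by 1.29 ± 0.24 and the RNA-binding ZMAT3 by 0.64 ± 0.039. GDF15 had 1291, 987 and 928 CPM, against 438, 462 and 408 CPM under THZ1.

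Immediate-early genes, whose RNAs are short-lived, gave 6 of 22 higher, 3 lower and 13 not called, with a median of 0.40. Under BGJ398 alone 16 were higher and none lower. The 3 genes lower in the combination, BTG2, ID1 and ID3, were all called higher under BGJ398 alone. SGK1, a kinase of the AKT class, rose by 1.68 ± 0.31 in the combination, EGR2 by 1.46 ± 0.32, KLF10 by 1.38 ± 0.12 and ID2 by 1.36 ± 0.088. KLF10 had 105, 100 and 104 CPM in the combination, against 39.5, 41.3 and 37.8 CPM under THZ1, and its interaction was called (1.16 ± 0.17, adjusted p = 3.22e-05). This count depends on the libraries that stood apart. Without BGJ398 replicate 1 and DMSO replicate 1, 12 of the 22 were called higher and 4 lower, with a median of 0.42. In the machinery of transcription, 6 of 15 genes were higher and 2 lower. POLR2A, encoding the catalytic subunit of polymerase II, had 526, 566 and 579 CPM in the combination, against 280, 287 and 276 CPM under THZ1 (0.99 ± 0.039, adjusted p = 2.07e-11). HEXIM1, which holds the elongation kinase P-TEFb inactive, had 349, 350 and 337 CPM, against 221, 221 and 210 CPM under THZ1 (0.67 ± 0.065). HEXIM1 did not pass under BGJ398 alone (0.12), and its interaction was 0.55 ± 0.092 (adjusted p = 0.000148). The elongation genes CCNT2 and SUPT5H rose by 0.35 and 0.30, though CCNT2 lost its call when any one of 5 of the 6 libraries was left out.

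Urothelial differentiation genes moved in both directions when BGJ398 was added to THZ1. Of 18 tested, 7 were higher, 5 lower and 6 not called, with a median of 0.17, beside 0.66 under BGJ398 alone, and the interaction was called lower for 11. UPK1A, a uroplakin of the bladder surface, had 10.0, 11.6 and 13.0 CPM in the combination, against 5.37, 6.32 and 4.88 CPM under THZ1 (1.07 ± 0.11, adjusted p = 6.3e-07). BGJ398 alone brought it to 197, 200 and 204 CPM, against 5.74, 5.75 and 4.36 CPM in DMSO (5.24 ± 0.09), and the interaction was -4.17 ± 0.15 (adjusted p = 3.01e-11). GRHL3, a factor of surface epithelium, was higher by 0.73 ± 0.29, a call lost whichever of the 6 libraries was left out, and KRT18 fell by 0.49 ± 0.067. KRT20 was lower by 1.75 ± 0.57 (adjusted p = 0.0146), at 0.185 CPM in the combination and 0.653 CPM under THZ1, and its call was lost without THZ1 replicate 3.

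Basal and squamous genes gave 4 of 16 higher, 6 lower and 6 not called. TP63, the master factor of basal epithelium, had 7.52, 8.31 and 7.32 CPM in the combination, against 53.5, 51.1 and 54.3 CPM under THZ1 (-2.78 ± 0.06, adjusted p = 4.19e-14). TP63 also fell under BGJ398 alone, by 2.11 ± 0.046, and the fall was larger with THZ1 (interaction -0.67 ± 0.077, adjusted p = 2.79e-06). In the combination it was the lowest of the 4 arms, at 7.72 CPM on average, beside 52.9 under THZ1, 56.1 under BGJ398 and 242 in DMSO. CD44, the hyaluronan receptor of basal cells, had 70.3, 62.9 and 63.6 CPM, against 232, 226 and 232 CPM under THZ1 (-1.81 ± 0.052). The envelope protein gene IVL fell by 1.45 ± 0.17 and the desmosomal cadherin DSC3 by 1.16 ± 0.11.

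Of 15 YAP and TEAD targets, 6 were higher and 2 lower. The matricellular genes CCN1 and CCN2 rose by 0.91 ± 0.07 and 0.98 ± 0.09. FJX1 and the ectonucleotidase NT5E fell by 2.38 ± 0.23 and 1.25 ± 0.14. Of 15 mesenchymal and TGF-beta genes, 7 were higher and 3 lower. SNAI1, a factor that represses epithelial cadherin, had 6.88, 5.82 and 6.40 CPM in the combination, against 1.60, 1.68 and 1.53 CPM under THZ1 (1.98 ± 0.22, adjusted p = 1.38e-06). BGJ398 alone lowered SNAI1 by 1.74 ± 0.42, and the interaction was 3.72 ± 0.47 (adjusted p = 6.63e-06). The contractile gene TAGLN rose by 1.54 ± 0.20 and the matrix gene THBS1 by 0.93 ± 0.048. ZEB1 was higher by 1.21, at 0.608 CPM in the combination and 0.260 CPM under THZ1, and lost its call when any one of 5 of the 6 libraries was left out.

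**Figure D4:**
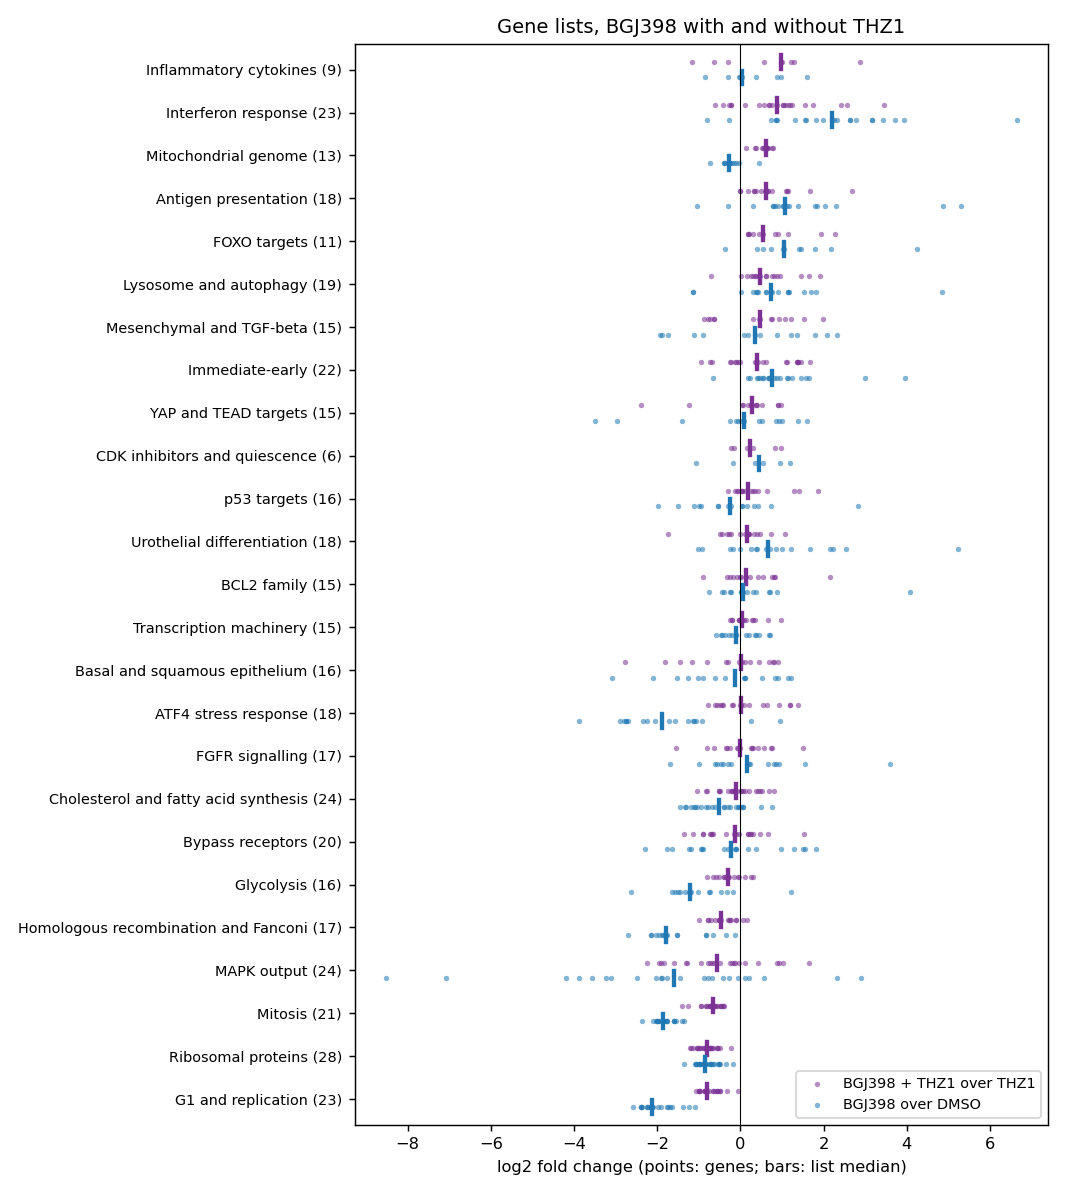
Log2 fold changes of the tested members of 25 gene lists (points; number of genes in brackets) with the list median (bars), for the combination over THZ1 (upper row of each list) and BGJ398 over DMSO (lower row). Most medians lie nearer zero in the combination; ribosomal proteins have nearly equal medians (-0.81 and -0.85) and the mitochondrial genome has medians on opposite sides of zero (0.62 and -0.28).

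The largest single rises were GPNMB and HMOX1. GPNMB, a glycoprotein of lysosomes and melanosomes, had 20.2, 21.6 and 17.4 CPM in the combination, against 1.60, 1.36 and 1.38 CPM under THZ1 (3.76 ± 0.15, adjusted p = 2.07e-11). HMOX1, heme oxygenase of the oxidative stress response, had 164, 133 and 133 CPM, against 12.5, 12.4 and 12.2 CPM under THZ1 (3.54 ± 0.15). BGJ398 alone brought HMOX1 only to 24.8, 16.1 and 16.6 CPM, against 5.74, 5.43 and 5.42 CPM in DMSO, so its rise was larger with THZ1 (interaction 1.75 ± 0.26, adjusted p = 4.1e-05). GEM, a small GTPase, had 10.5, 8.56 and 7.17 CPM, against 0.801, 0.961 and 0.728 CPM under THZ1 (3.38 ± 0.41). GEM did not pass under BGJ398 alone (0.12; interaction 3.27 ± 0.70, adjusted p = 0.0011). The matrix protein gene MATN4 behaved likewise, at 6.08, 6.31 and 6.25 CPM, against 0.801, 1.04 and 0.655 CPM under THZ1 (2.89 ± 0.36), with an interaction of 3.82 ± 0.89 (adjusted p = 0.00197). The transcription factor MAF rose by 2.88 ± 0.32, the adaptor FYB1 by 2.54 ± 0.11, the protocadherin PCDH10 by 2.77 ± 0.23, CCDC85A by 2.62 ± 0.25 and the adhesion molecule ICAM5 by 2.53 ± 0.25. MAF and FYB1 had nearly the same changes under BGJ398 alone (2.65 and 2.50). A gene annotated as 7SK, the small RNA that pairs with HEXIM1, was higher by 2.37 ± 0.28, from 7.98 to 12.7 CPM in the combination. The genome holds many copies of it, so this value is uncertain.

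The largest single fall was that of SLC1A7, a glutamate transporter, which had 0.560, 0.332 and 0.305 CPM in the combination, against 24.7, 25.1 and 20.5 CPM under THZ1 (-5.84 ± 0.23, adjusted p = 1.72e-11). Its relative SLC1A6 had 3.60, 3.24 and 3.28 CPM, against 42.6, 35.6 and 40.7 CPM under THZ1 (-3.55 ± 0.11). The mucosal scavenger protein DMBT1 fell by 3.88 ± 0.32, the keratin KRT23 by 3.24 ± 0.54, the crosslinking enzyme LOXL1 by 3.18 ± 0.16 and C16orf54 by 3.14 ± 0.22. FGD5, an exchange factor for CDC42, fell by 2.87 ± 0.15. The urate transporter SLC2A9 had 2.16, 1.66 and 1.75 CPM, against 12.3, 11.0 and 13.6 CPM under THZ1, and fell more than without THZ1 (-2.72 ± 0.13 and -1.25 ± 0.09; interaction -1.48 ± 0.16, adjusted p = 2.02e-06). All 10 largest falls were also called lower under BGJ398 alone, by 1.25 to 7.37. For SLC1A7, DMBT1, KRT23 and C16orf54 the interaction was not called (adjusted p = 0.0506 to 0.959).

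**Figure D5:**
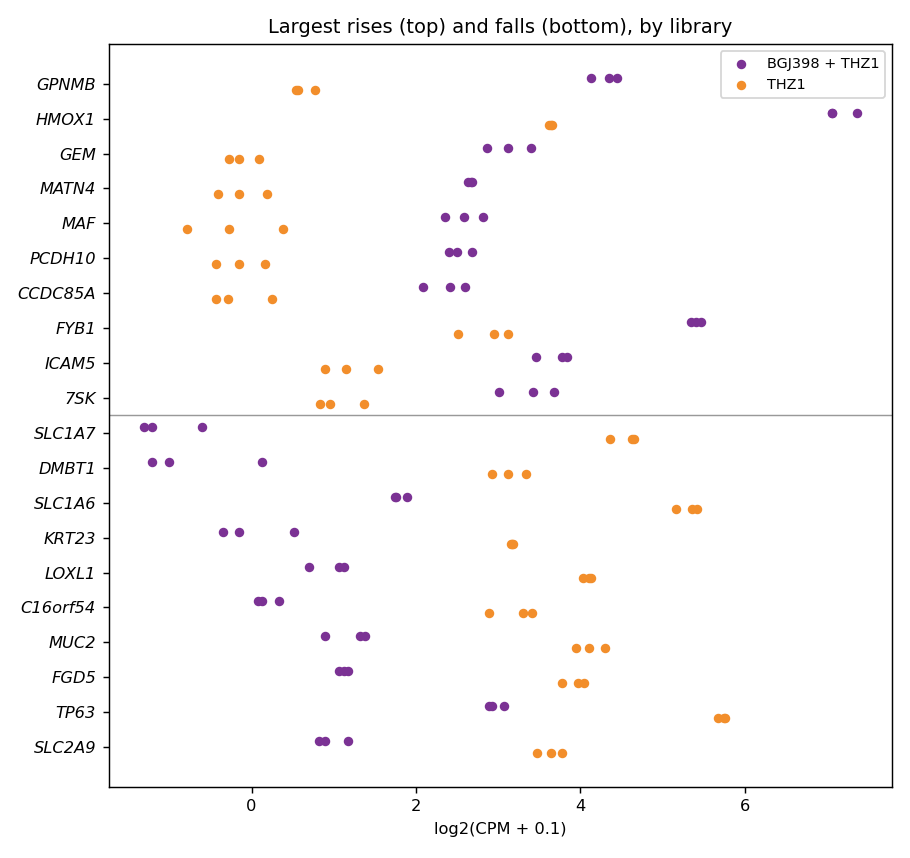
Log2 of CPM plus 0.1 in each combination and THZ1 library for the 10 largest rises (top) and 10 largest falls (bottom), points standing for libraries. The 3 combination libraries lie on one side of the 3 THZ1 libraries for every gene, as the rule for choosing them required.

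The genes whose response to BGJ398 depended most on THZ1 fell in both directions. Besides ETV5, ETV4 and CHAC1, the positive interactions included MMP1, GAL and MUC2. MMP1, an interstitial collagenase, had 1.201, 0.914 and 1.07 CPM in the combination, against 5.53, 4.72 and 6.84 CPM under THZ1, so it was 5.37-fold lower in the combination. Without THZ1 it was at 0 in all 3 BGJ398 libraries, against 67.0, 70.1 and 70.6 CPM in DMSO. Taking 3 counts per library as the floor (0.225 CPM), MMP1 was at least 308-fold lower under BGJ398 than in DMSO. GAL, the neuropeptide galanin, had 19.4, 18.2 and 15.8 CPM in the combination, against 14.9, 14.97 and 14.4 CPM under THZ1, and was not called (adjusted p = 0.191). Under BGJ398 it had 0.764, 0.294 and 0 CPM, against 13.8, 13.5 and 13.0 CPM in DMSO (interaction 5.50 ± 0.37, adjusted p = 8.36e-09). MUC2, a secreted mucin, had 2.401, 2.49 and 1.75 CPM in the combination, against 17.1, 15.3 and 19.6 CPM under THZ1, and 0.305, 0.294 and 0.149 CPM under BGJ398, against 43.6, 43.9 and 40.8 CPM in DMSO (interaction 4.40 ± 0.36). The most negative interactions were those of CCDC85A, GSTA1, HMCN1, TMEM37, PNPLA7 and UPK1A, from -4.92 to -4.17. CCDC85A had 4.16, 5.23 and 5.95 CPM in the combination, against 0.721, 0.640 and 1.09 CPM under THZ1, and 25.5, 28.1 and 25.9 CPM under BGJ398, against 0.0775, 0 and 0.329 CPM in DMSO. PNPLA7, a lysophospholipase, had 2.16, 2.49 and 2.29 CPM in the combination, against 0.240, 0.560 and 0.436 CPM under THZ1, and 18.1, 14.8 and 14.7 CPM under BGJ398, against 0.155, 0.240 and 0 CPM in DMSO. The matrix gene HMCN1 and the membrane protein gene TMEM37 were not called in the combination (adjusted p = 0.0505 and 0.472) and were higher by 5.85 and 5.16 under BGJ398 alone. GSTA1, a glutathione transferase with close relatives that may share its reads, was at 0.240, 0.498 and 0.534 CPM in the combination and 0, 0.240 and 0 CPM under THZ1. Its interaction was not called without THZ1 replicate 3.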

How the data were processed

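RNA was sequenced from RT112 cells, and the deposited table gives the authors' RSEM expected counts per gene. RSEM 1.2.12 and Bowtie2 2.2.1 with build hg19 are named per the submitters' processing notes; the gene annotation is not given there. Per the labels' protocols, RNA came from a Qiagen column kit and libraries from a NEBNext kit. Columns were matched to samples by title, and 75 columns of other lines were not used here. Of 53893 gene IDs, 37404 matched a symbol, and the unmatched 16489 held 1.43% of RT112 counts.

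Expected counts were rounded. edgeR 4.0.16 in R 4.3.3 fitted a quasi-likelihood model to all 15 RT112 libraries (5 arms of 3, including BGJ398 for 7 days), with TMM scaling and filterByExpr by arm, which left 15298 genes. Calls are at an adjusted p under 0.05 (Benjamini-Hochberg over all of these genes). The printed log2 fold changes carry edgeR's damping of small counts, while SE was worked out from the undamped change and the test statistic. At low counts the SE is therefore only approximate. The procedure was tested on simulated data. Alternatives were other scalings, DESeq2 1.42.0, other filters, a replicate block, a fit of the arms alone and leaving out libraries. Replicate numbers were not treated as pairs, since the arms compared share only 2 of them and the labels tie them to no batch. The combination has a replicate 1 and THZ1 has none, so a shift tied to that number cannot be told apart from BGJ398. Without replicate 1 of every arm, 8343 genes were called between the combination and THZ1, and 94.5% of the main calls were kept.

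Gene lists and members were chosen with earlier results of these data known. Named genes are the 10 largest called rises and falls with a symbol, at least 5 CPM in the higher arm and arms that do not overlap, the 6 most positive and most negative interactions at 5 CPM in any arm, and from each list up to 4 called members with the largest change plus members of known role. Further genes were named after their values were seen. Promoters were taken from RefSeq GRCh38.p14 by symbol and used for sequence only.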

Additional observations from a re-analysis of the deposited data

Results flagged for a closer look

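The genes screened here were those picked by the naming rules, the MAPK output, FGFR signalling and BCL2 lists, and further genes named with values above. For 9 of them, every library of the combination lay on one side of THZ1 and BGJ398 alone moved the gene the other way. The difference itself passed edgeR's quasi-likelihood test after Benjamini-Hochberg adjustment. Members of other lists, such as BTG2, ID1 and ID3, were not screened. The values are the log2 effect of BGJ398 with THZ1 minus that without. Positive differences, with the gene higher in the combination than under THZ1 and lower under BGJ398 than in DMSO, were those of CHAC1 (5.28), SNAI1 (3.72), SLC7A11 (3.69), VGF (3.68), CTH (2.10) and MT-ND4 (0.91). CHAC1 averaged 4.64 CPM in the combination and 1.76 CPM under THZ1, and 2.87 CPM under BGJ398 and 42.8 CPM in DMSO. MT-ND4 averaged 7356 CPM in the combination and 4678 CPM under THZ1, and 4636 CPM under BGJ398 and 5555 CPM in DMSO. Negative differences were those of NAPSA (-4.01), BST2 (-1.08) and RBL2 (-0.77). NAPSA, an aspartic protease of lung, lay below 1 CPM on average in each arm, at 0.107 CPM in the combination and 0.59 CPM under THZ1, and 0.846 CPM under BGJ398 and 0.266 CPM in DMSO. BST2 averaged 23.7 CPM in the combination and 27.8 CPM under THZ1, and 56.9 CPM under BGJ398 and 31.6 CPM in DMSO. The cause of these differences was not tested.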

How the results depend on the processing

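The count of genes called between the combination and THZ1 was 7943 and ranged from 7147 with DESeq2 to 8489 without BGJ398 replicate 1 and DMSO replicate 1, an alternative chosen after seeing the data. It was 7234 to 7373 when 1 library of these arms was left out. With the replicate number as a block it was 7991, beside 10585 for BGJ398 against DMSO and 7030 for the interaction, although the labels do not say that the numbers pair the libraries. Deviations from the arm means correlated at 0.066 and -0.044 for the 2 numbers shared by the combination and THZ1, and at 0.561 and 0.358 for the 2 shared by BGJ398 and DMSO, too few pairs to settle it. None of the counts of calls over all genes moved by more than 1.5 times under any alternative run, while counts within some lists did, such as the immediate-early genes. Of 191 single-gene results, 173 kept their direction and side of the threshold under every alternative, and 1 turned round. That was MCL1, not called at 0.12 and at -0.0293 under the block; the cause was not tested. PHLDA1 and IER3 passed under several alternatives, and HMCN1 under 8. BID lost its call without combination replicate 3, and GAB1 without combination replicate 2 and with no filter on low counts. Low counts limit genes near 1 CPM, such as ZEB1, FGFR4 and GSTA1.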
